A study of Rattus norvegicus with 18 samples.

Results

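Mesenchymal stromal cells from the bone marrow of young rats (yMSCs) were compared between passage 30 (P30) and passage 2 (P2), to ask which mRNAs differ between a long-term and an early culture of these cells. The comparison takes the 3 arrays labelled yMSCs P30 and the 3 labelled yMSCs P2, and all genes detected in at least 1 of the 2 groups, meaning a mean detection p of at most 0.01 over its 3 arrays. These are 8938 genes of 22018 on the array, 6508 of them with a gene symbol and 2430 known only by their probe. The cells came from male Sprague-Dawley rats of 3 weeks, were selected by adherence to plastic and were grown in the same expansion medium in both groups. The study also holds P100 cultures and cells from rats of 12 months (aMSCs), 18 arrays in 6 groups of 3. A pair of cultures kept long-term is described, with nothing on how arrays map to flasks. The 3 arrays of yMSCs P30 may therefore stem from 1 culture. The adjusted p-values below rest on the spread between arrays of the same group, pooled for each gene over all 18 arrays. They do not measure the spread between cultures.

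MSCs are fibroblast-like cells of the marrow stroma that lay down collagen and proteoglycan matrix, secrete chemokines that hold blood-forming cells in the marrow, and can give rise to bone, fat and cartilage cells. Early passages of marrow cells selected by adherence can still hold macrophages, which adhere to plastic as well. Dividing cells are recognised in mRNA by the genes of DNA replication, which are driven at the entry into S phase by the E2F family of transcription factors, and by those of mitosis, which are released later in the cycle from repression at cell cycle homology regions.

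Background was brighter on the P30 arrays. Undetected probes had a median intensity of 55.9 to 56.2 scanner units in yMSCs P30, against 32.4 to 34.7 in yMSCs P2, and the median detected probe exceeded this 4.29 to 4.63 times in yMSCs P30, against 6.07 to 6.48 times in yMSCs P2. The labels name no array run, and array background and passage cannot be told apart here. On single arrays, 8155, 8239 and 7860 genes were detected in yMSCs P30, against 8569, 8944 and 9114 in yMSCs P2, a difference of -791 genes (8085 ± 199 and 8876 ± 279, SD, n = 3 each), without overlap between the groups. The exact two-sided permutation test gave p = 0.1, the smallest p that 3 against 3 arrays allow. Replicate 1 of yMSCs P30 stood apart from its group. It correlated with replicates 2 and 3 at r = 0.966 and 0.968 across genes, whereas replicates 2 and 3 correlated at 0.995 and the arrays of yMSCs P2 at 0.983 to 0.987. In 553 genes it lay over 1 log2 unit from the mean of the other two arrays while these were within 0.5 of each other, against 3 and 1 genes for replicates 2 and 3, and 53 to 76 genes for the arrays of yMSCs P2.

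Of the 8938 genes, 1538 were higher and 1548 lower in yMSCs P30 than in yMSCs P2, that is 17.2% and 17.3%, together 34.5%. The counts of the gene lists below are to be read against these shares. The call needed an adjusted p below 0.05 (limma, Benjamini-Hochberg over 9531 genes) together with a change of at least 1.5-fold. Signals are background-corrected and quantile-normalized log2 values, changes are log2 fold changes of yMSCs P30 over yMSCs P2 with their standard error (SE), and their median over all 8938 genes was 0.04. The median fold of the called genes was 1.93, and a fold of 4 or more was reached by 90 of the genes that rose and 235 of those that fell. The arrays of both groups did not overlap in 2993 of the 3086 called genes and in 54.1% of all 8938 genes. Without replicate 1 of yMSCs P30, 1528 genes rose and 1449 fell, among them 1233 and 1298 of the genes called with all arrays. Without normalization between arrays 1025 genes rose and 2068 fell, and with the values of the series matrix 1283 rose and 2220 fell, so the share of rises among the calls was 33.1% and 36.6% in place of 49.8%. Detection was less balanced: 348 genes were detected in yMSCs P30 only, against 1104 in yMSCs P2 only. Of the former 194 were called higher, and of the latter 553 were called lower. For a gene that entered through 1 group alone, the filter on detection nearly fixed the direction of a call, in the lists below too. On every array of its own group and none of the other, 88 genes reached the limit in yMSCs P30, against 527 in yMSCs P2.

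**Figure D1:**
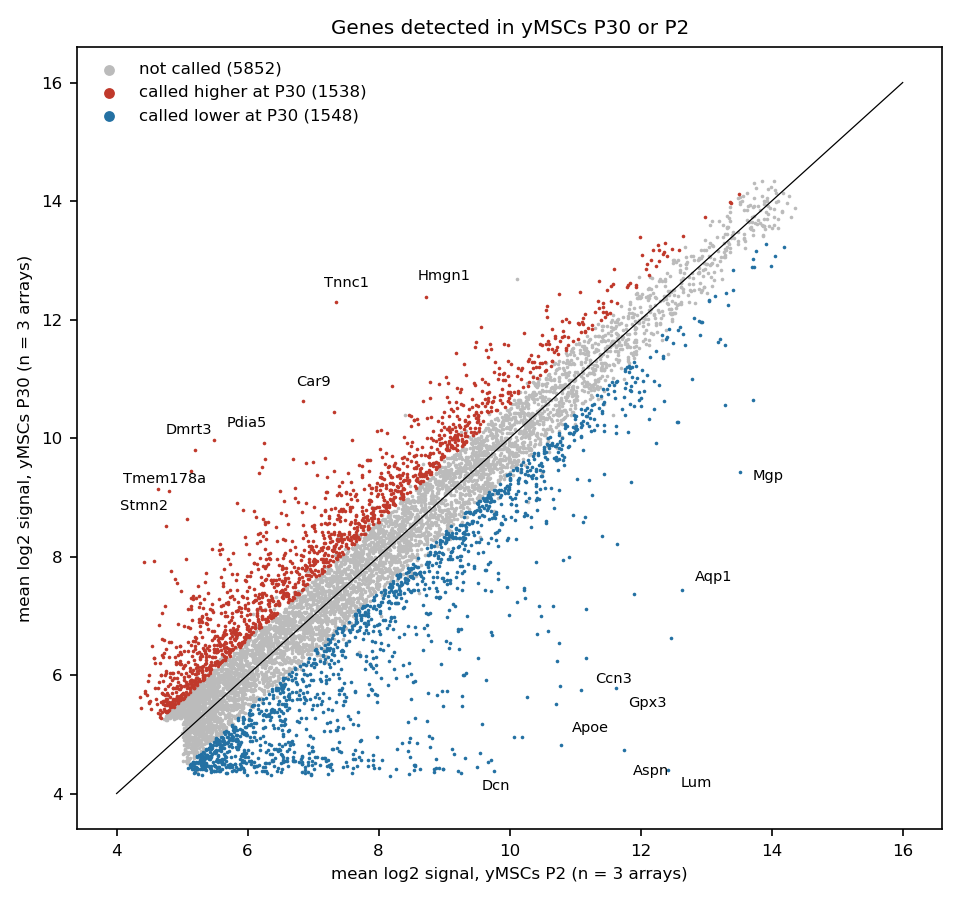
Mean log2 signal of each of the 8938 genes in yMSCs P30 (vertical axis) against yMSCs P2 (horizontal axis), 3 arrays each, with the line of equal signal and the called genes in colour. The 1538 genes called higher lie above the line and the 1548 called lower below it, with Lum, Aspn and Apoe at the background of the P30 arrays and bright in P2.

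Genes of DNA replication and of mitosis rose together. Of 32 detected genes of DNA replication, 27 were higher in yMSCs P30 and none was lower, with a median change of 1.43. All 21 detected genes of mitosis and the spindle were higher, with a median change of 1.69. The largest rise among the replication genes was that of Mcm6, a subunit of the MCM helicase that unwinds DNA at replication origins, with log2 signals of 11.39, 10.62 and 10.62 in yMSCs P30, against 7.71, 8.33 and 8.59 in yMSCs P2 (change 2.66 ± 0.30, adjusted p = 2.98e-06). The lowest array of yMSCs P30 lay 2 log2 units above the highest of yMSCs P2. By adjusted p, Rfc2 led the list, a subunit of the clamp loader, with 7.48, 7.65 and 7.55 in yMSCs P30, against 4.75, 4.88 and 5.15 in yMSCs P2 (change 2.64 ± 0.18, adjusted p = 8.66e-09). Of the arrays of yMSCs P2, 1 detected Rfc2, so its fitted change takes background for signal on the others. Rfc2 was followed by Pole2, an accessory subunit of DNA polymerase epsilon (change 2.29 ± 0.20), and by the helicase subunits Mcm3 (2.05 ± 0.18) and Mcm7 (2.01 ± 0.19), with adjusted p = 1.31e-07, 1.80e-07 and 3.47e-07. The remaining 5 replication genes all had a positive change of 0.43 to 0.56, below the fold required. In mitosis, Bub1b, a kinase of the spindle checkpoint, had 8.16, 7.69 and 7.50 in yMSCs P30, against 5.42, 5.58 and 5.92 in yMSCs P2 (change 2.14 ± 0.20, adjusted p = 3.44e-07). Tpx2, which targets Aurora A to spindle microtubules, had 9.96, 9.53 and 9.32 in yMSCs P30, against 6.28, 7.11 and 7.60 in yMSCs P2 (change 2.61 ± 0.27, adjusted p = 1.24e-06). In both genes every array of yMSCs P30 lay above every array of yMSCs P2. The kinases Plk1, which drives entry into and exit from mitosis, and Ttk, a checkpoint kinase, changed by 2.32 ± 0.24 and 2.40 ± 0.25. Summed over the list, the mitosis genes had 13853 to 14246 units of signal on the arrays of yMSCs P30 and 2616, 4251 and 5781 on those of yMSCs P2. The arrays of P2 thus differed widely among themselves, and even the highest was below every array of P30.

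Promoter letters of such genes are shown because E2F sites and cell cycle homology regions (CHR) are known from many replication and mitosis genes. In the 250 bases before the start of each gene (RefSeq, GRCr8), the E2F letters TTGGCGC or TTCCCGC or TTCGCGC or TTGCCGC on either strand, which can overlap each other, were present in 9 of 23 risen replication genes with a promoter in the table, 39.1%, and in 7.97% of all 27457 promoters. The CHR letters TTTGAA or TTCGAA on either strand were present in 7 of 16 risen mitosis genes, 43.8%, against 17.3% of all promoters. CCAAT on either strand was present in 11 of these 16, 68.8%, in 13 of the 23 replication genes, 56.5%, and in 8 of 14 fallen lysosome genes, 57.1%, against 34.3% of all promoters. Shown are the 2 holders of E2F letters with the largest rise, Mcm6 (chr13:42404353-42404602, minus strand) and Mcm10 (chr17:78175137-78175386, plus strand), with E2F letters in capitals, and the 2 holders of CHR letters with the largest rise, Bub1b (chr3:126016817-126017066, plus strand) and Cdc20 (chr5:137255800-137256049, minus strand), with CHR and CCAAT letters in capitals. Each run of capitals in Mcm6 holds 2 overlapping matches, one on each strand. The letters are a description of these windows, and binding was not measured.
Mcm6: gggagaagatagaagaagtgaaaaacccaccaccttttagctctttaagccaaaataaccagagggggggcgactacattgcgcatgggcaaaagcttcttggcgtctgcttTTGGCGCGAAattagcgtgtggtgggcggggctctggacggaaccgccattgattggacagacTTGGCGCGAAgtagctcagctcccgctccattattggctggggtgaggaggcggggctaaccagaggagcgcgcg
Mcm10: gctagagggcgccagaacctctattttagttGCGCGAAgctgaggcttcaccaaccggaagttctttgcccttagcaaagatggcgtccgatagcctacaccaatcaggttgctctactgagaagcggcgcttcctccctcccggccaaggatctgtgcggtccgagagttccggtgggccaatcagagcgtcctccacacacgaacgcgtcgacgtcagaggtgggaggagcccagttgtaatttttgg
Bub1b: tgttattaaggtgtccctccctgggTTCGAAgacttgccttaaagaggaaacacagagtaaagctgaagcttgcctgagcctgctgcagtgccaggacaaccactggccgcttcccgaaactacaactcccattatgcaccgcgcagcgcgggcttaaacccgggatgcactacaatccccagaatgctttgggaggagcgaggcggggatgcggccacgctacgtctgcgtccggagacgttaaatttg
Cdc20: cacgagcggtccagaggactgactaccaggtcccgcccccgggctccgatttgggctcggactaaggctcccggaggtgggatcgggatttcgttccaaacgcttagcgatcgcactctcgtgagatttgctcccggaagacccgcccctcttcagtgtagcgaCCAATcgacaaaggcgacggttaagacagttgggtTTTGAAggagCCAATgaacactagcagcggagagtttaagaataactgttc
Mcm10, which helps to load the replication machinery at origins, changed by 2.03 ± 0.25, and Cdc20, the activator of the anaphase-promoting complex, by 2.13 ± 0.25 (adjusted p = 7.55e-06 and adjusted p = 4.88e-06).

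Among the regulators of the cell cycle, Ccnd1, the G1 cyclin D1, and Cdk4, its kinase, rose by less than the median replication gene, with changes of 0.70 ± 0.13 and 0.67 ± 0.14. E2f1, a transcription factor of the E2F family, changed by 0.88 ± 0.13 and Ccne2, a cyclin of the entry into S phase, by 1.06 ± 0.34. Ccne2 lost its call without replicate 1 of yMSCs P30 (0.90, adjusted p = 0.0686) or replicate 1 of yMSCs P2 (0.84, adjusted p = 0.0892). Of 11 detected genes of this list 4 rose, and 1 rose without normalization between arrays or with the series matrix values. Cdkn1a, which encodes the inhibitor p21, had 5.08, 6.01 and 5.71 in yMSCs P30, against 7.20, 6.92 and 6.73 in yMSCs P2, a fall without overlap (change -1.35 ± 0.23, adjusted p = 0.000203). Replicate 1 of yMSCs P30 did not detect Cdkn1a, so its fitted change takes background for signal there. Cdkn2b, which encodes the inhibitor p15, was detected on all arrays of yMSCs P2 and on none of yMSCs P30, at least 1.21-fold lower in P30. Cdkn1b (0.11 ± 0.28) and Cdkn1c (0.42 ± 0.15) did not pass, and Cdkn2a has no named probe in the annotation used here. Of 9 detected p53 target genes, 5 fell and none rose, with a median of -0.60. Besides Cdkn1a these were Gadd45a, which responds to DNA damage (-1.33 ± 0.17), the death receptor Fas (-0.93 ± 0.14), the cyclin Ccng1 (-0.62 ± 0.18) and Mdm2, the ligase that degrades p53 (-0.60 ± 0.19). Mdm2 and Ccng1 lay close to the required fold, and 3 of the list fell when replicate 2 or replicate 3 of yMSCs P30 was left out, with Mdm2 at -0.54 and -0.57 and Ccng1 at -0.50 and -0.53. Mdm2 also lost its call without replicate 1 (-0.56) or replicate 2 (-0.49) of yMSCs P2. Of 13 DNA repair genes, 4 rose, among them Exo1, an exonuclease of mismatch repair and recombination, with 8.47, 7.97 and 7.88 in yMSCs P30, against 5.19, 5.55 and 5.94 in yMSCs P2 (change 2.55 ± 0.25, adjusted p = 5.45e-07). Parp1, which senses DNA breaks, changed by 1.09 ± 0.24, Pms2 of mismatch repair by 0.77 ± 0.19, and Fanca of crosslink repair was at least 2.50-fold higher, undetected on the P2 arrays. Mgmt, which removes alkyl groups from guanine, was the 1 repair gene that fell (-1.40 ± 0.31).

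**Figure D2:**
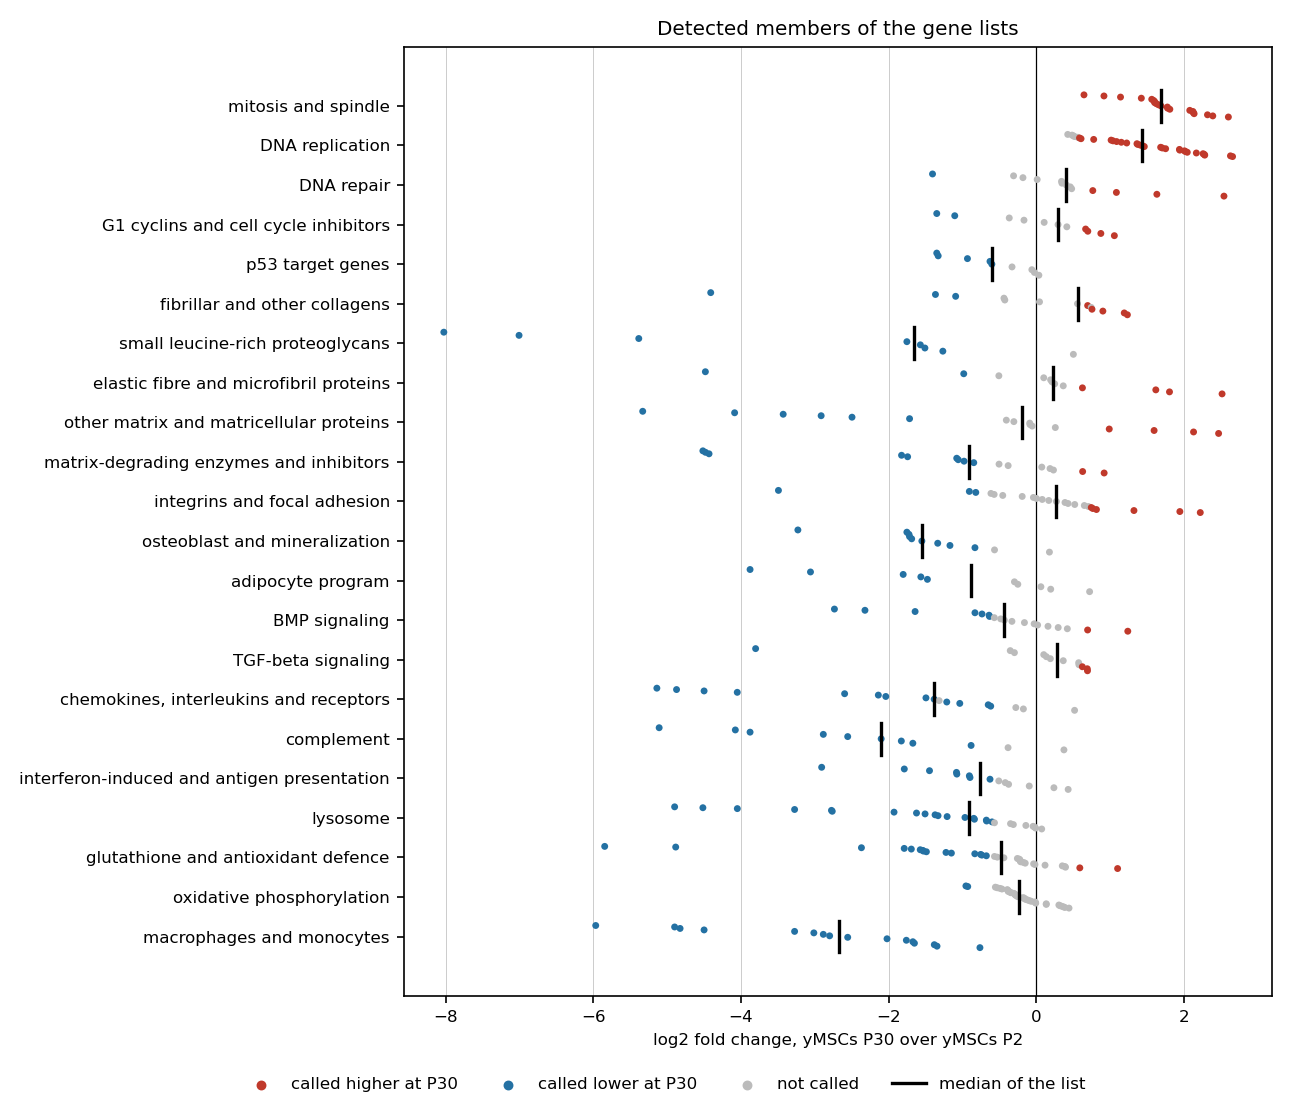
Log2 fold change of yMSCs P30 over yMSCs P2 (horizontal axis) for each detected member of 22 gene lists, 1 point a gene, coloured by its call, with the median of each list as a bar. The lists of mitosis and DNA replication lie to the right of 0, with medians of 1.69 and 1.43, and the lists of macrophages, complement and small leucine-rich proteoglycans lie farthest to the left, with medians of -2.68, -2.10 and -1.66 of the fitted values, or -1.82, -1.25 and -1.42 with genes undetected on every array of yMSCs P30 at their bound.

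Secreted matrix proteins were among the largest falls. Lumican (Lum), a small leucine-rich proteoglycan that binds collagen fibrils and controls their thickness, had log2 signals of 4.43, 4.36 and 4.39 in yMSCs P30, against 12.34, 12.54 and 12.38 in yMSCs P2. It was detected on no array of P30 and was at least 143-fold lower there, a bound set by the dimmest detected signal on each array (adjusted p = 7.17e-14). Asporin (Aspn), a proteoglycan of the same family, had 4.65, 4.83 and 4.75 in yMSCs P30, against 12.29, 11.34 and 11.62 in yMSCs P2, at least 89.7-fold lower. Decorin (Dcn), which binds collagen and TGF-beta, had 4.34, 4.38 and 4.43 in yMSCs P30, against 10.02, 8.83 and 10.45 in yMSCs P2, at least 22.7-fold lower. All 3 were at the background of every P30 array, so the P30 values have no order among them. Of 8 detected members of the family, 7 fell and none rose, with a median of -1.66, or -1.42 with the 5 genes undetected on the P30 arrays at their bound. In yMSCs P30 2 were detected, against all 8 in yMSCs P2, so the filter on detection nearly fixed the direction of the other calls. Osteoglycin (Ogn) fell by a smaller amount (-1.26 ± 0.23) and biglycan (Bgn), another collagen-binding member, had 11.04, 10.86 and 10.79 in yMSCs P30, against 10.55, 10.34 and 10.28 in yMSCs P2, a change of 0.51 ± 0.15 below the fold required.

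Of 16 detected matricellular and other matrix proteins, 6 fell and 4 rose. Ccn3, a matricellular protein that binds integrins and restrains proliferation in several cell types, had 5.56, 6.02 and 5.69 in yMSCs P30, against 11.37, 11.13 and 10.75 in yMSCs P2 (change -5.33 ± 0.27, adjusted p = 2.08e-10). Matrix Gla protein (Mgp), an inhibitor of calcification, had 8.86, 9.73 and 9.69 in yMSCs P30, against 14.09, 13.40 and 13.04 in yMSCs P2 (change -4.09 ± 0.29, adjusted p = 1.00e-08). Both remained detected on every array of P30, and Mgp was still well above background in P30. Ccn5 and the tenascin Tnn changed by -2.49 ± 0.16 and -3.43 ± 0.18. In the other direction, aggrecan (Acan), the large proteoglycan of cartilage, had 8.79, 7.67 and 7.70 in yMSCs P30, against 5.68, 5.41 and 5.63 in yMSCs P2 (change 2.47 ± 0.27, adjusted p = 1.75e-06), and the laminin chain Lamc1 of basement membranes changed by 2.13 ± 0.19. Tgfbi, a TGF-beta-induced matrix protein, was undetected in P2 and at least 2.44-fold higher in P30.

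Collagens were split. Col15a1, a collagen of the basement membrane zone, had 5.79, 4.94 and 4.78 in yMSCs P30, against 9.54, 10.01 and 9.18 in yMSCs P2 (change -4.41 ± 0.34, adjusted p = 3.04e-08). Of the arrays of yMSCs P30, 1 detected Col15a1, so its fitted change takes background for signal on the others. Col14a1 and Col6a1, both associated with fibril surfaces or microfibrils, changed by -1.36 ± 0.38 and -1.09 ± 0.32. The fibrillar collagens of the stroma did not fall: Col3a1 had 12.65, 11.41 and 11.44 in yMSCs P30, against 10.93, 10.32 and 10.67 in yMSCs P2 (change 1.20 ± 0.28, adjusted p = 0.00244), Col1a1 changed by 0.76 ± 0.22 and Col1a2 by 0.56 ± 0.12, the last of these below the fold required. In all, 5 of 13 collagens rose and 3 fell, 38.5% and 23.1%, against 17.2% and 17.3% of all genes. Col1a1 lost its call without replicate 1 of yMSCs P30 (0.62, adjusted p = 0.0508) or replicate 2 of yMSCs P2 (0.68, adjusted p = 0.0503), and Col6a1, whose arrays overlapped, without replicate 2 (-0.87, adjusted p = 0.053) or replicate 3 (-0.87, adjusted p = 0.0542) of yMSCs P30. Replicate 1 of yMSCs P30 was the highest array for this list, with a summed signal of 81178 units against 52019 and 52866 on the other two and 47946 to 52934 in yMSCs P2, and without it 2 collagens rose and 3 fell. Of 12 elastic fibre proteins 4 rose and 2 fell, 33.3% and 16.7%, against 17.2% and 17.3% of all genes. Without replicate 3 of yMSCs P2, 1 fell. With the series matrix values 3 rose and 3 fell, and the median of 0.23 turned to -0.07. This median also turned, to -0.14, without replicate 1 of yMSCs P30, whose summed signal of the list was 29123 units, against 15516 and 16095 on the other two. Mfap5, a microfibril protein, fell with 5.86, 6.21 and 6.65 in yMSCs P30, against 11.50, 10.22 and 10.44 in yMSCs P2 (change -4.48 ± 0.38, adjusted p = 1.19e-07). Fbn2, the fibrillin of developing microfibrils, rose with 8.73, 7.86 and 7.79 in yMSCs P30, against 5.62, 5.73 and 5.47 in yMSCs P2 (change 2.52 ± 0.20, adjusted p = 5.09e-08), as did Fbln1 (1.81 ± 0.27) and Emilin1 (1.62 ± 0.31), while Fbn1, the main fibrillin of adult tissue, had a change of 0.22 ± 0.26.

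Matrix-degrading enzymes and their inhibitors were mostly lower: 9 of 16 detected members fell and 2 rose, with a median of -0.91. Ctsk, cathepsin K, a collagen-degrading protease, had 6.89, 7.56 and 7.68 in yMSCs P30, against 11.80, 11.83 and 12.04 in yMSCs P2 (change -4.52 ± 0.18, adjusted p = 1.13e-11). The metalloproteinases Mmp23 and Mmp12 were detected on every array of yMSCs P2 and on none of P30, at least 11.9-fold and at least 12.0-fold lower. The inhibitor Timp3 was at least 2.48-fold lower. The 2 that rose were Mmp11 (0.63 ± 0.19) and the plasminogen activator Plat (0.92 ± 0.28). Both lost their call without replicate 2 of yMSCs P2 (0.56 and 0.80), Mmp11 also without replicate 3 of yMSCs P2 (0.56) and Plat without replicate 1 of yMSCs P30 (0.65).

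**Figure D3:**
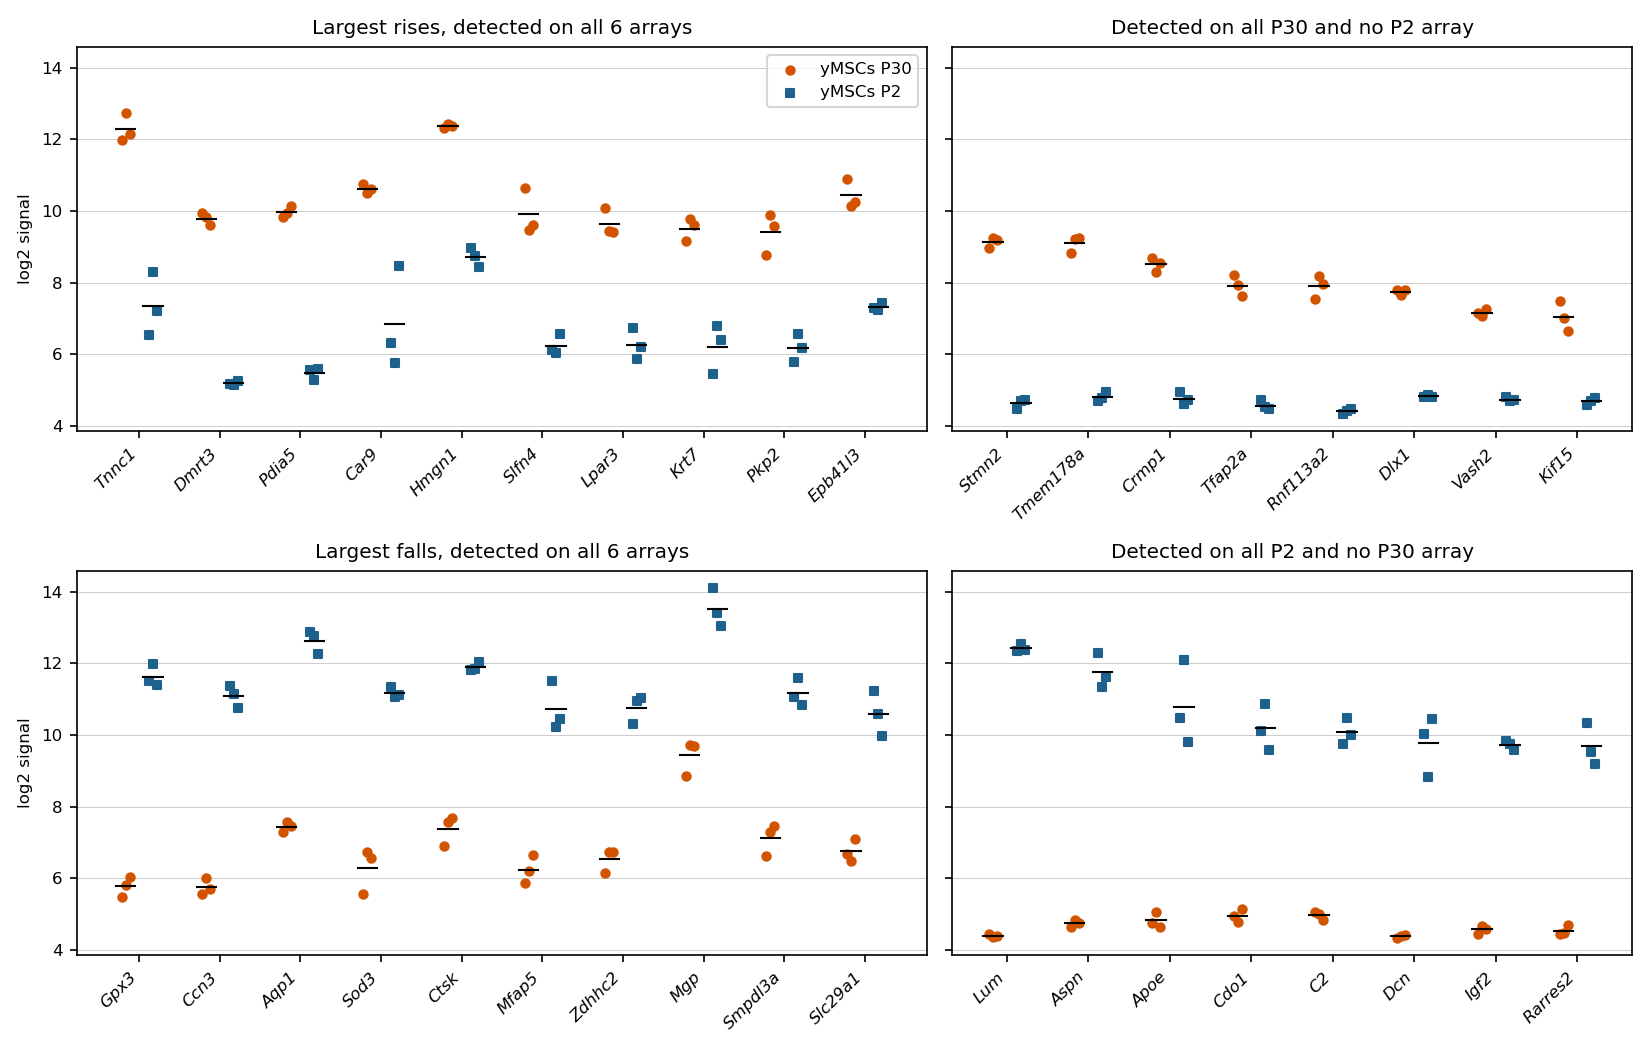
Log2 signal on each array of yMSCs P30 (circles, left of each pair) and yMSCs P2 (squares), with the mean of each group as a bar, for the genes with the largest changes. For genes detected on all 6 arrays the groups are 3.11 to 5.85 log2 units apart, and the 16 genes of the right panels lie at 4.34 to 5.13 in the group that did not detect them.

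Genes that mark the osteoblast lineage were lower in yMSCs P30. Of 11 detected members, 9 fell and none rose, with a median of -1.55, or -1.33 with Bmp2 and Omd, undetected in P30, at their bound. Dlx5, a homeobox factor of osteoblast development, had 5.36, 5.97 and 5.64 in yMSCs P30, against 8.44, 9.08 and 9.15 in yMSCs P2 (change -3.23 ± 0.23, adjusted p = 1.02e-08). Alpl, tissue-nonspecific alkaline phosphatase, which mineralizing cells use to release phosphate, had 7.46, 7.84 and 7.88 in yMSCs P30, against 8.50, 9.43 and 9.90 in yMSCs P2 (change -1.55 ± 0.28, adjusted p = 0.000313). Spp1, osteopontin, had 11.64, 11.47 and 11.61 in yMSCs P30, against 13.12, 13.54 and 13.22 in yMSCs P2 (change -1.71 ± 0.14, adjusted p = 4.63e-08). In all 3 the lowest array of yMSCs P2 was above the highest of yMSCs P30. Dmp1 of the bone matrix changed by -1.69 ± 0.29, Ankh, a pyrophosphate transporter, by -1.72 ± 0.23, Enpp1, which makes pyrophosphate, by -1.33 ± 0.17 and the cadherin Cdh11 by -1.17 ± 0.20. Bone sialoprotein (Ibsp), with 5.08, 5.49 and 5.62 in yMSCs P30, against 5.21, 5.20 and 5.23 in yMSCs P2, and the parathyroid hormone receptor Pth1r (-0.56 ± 0.21) did not pass, and the 6 other members on the array, Sp7 and Bglap among them, were below the limit in both groups.

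Of the adipocyte genes, 5 of 10 fell and none rose. Lpl, lipoprotein lipase, had 8.58, 8.17 and 8.32 in yMSCs P30, against 10.70, 12.36 and 11.17 in yMSCs P2 (change -3.06 ± 0.31, adjusted p = 7.41e-07), and Pparg and Cebpa, the transcription factors that drive adipocyte differentiation, changed by -1.80 ± 0.29 and -1.56 ± 0.31. Pparg had 5.52, 5.82 and 5.32 in yMSCs P30, against 6.53, 8.18 and 7.35 in yMSCs P2, without overlap between the groups. Replicate 3 of yMSCs P30 did not detect Pparg, so its fitted change takes background for signal there. Adipsin (Cfd) was at least 11.7-fold lower and Klf15, another factor of the fat lineage, changed by -1.47 ± 0.25. Cebpb (0.20 ± 0.19) and the lipid droplet protein Plin2 (0.07 ± 0.14) did not pass.

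The BMP pathway signals through type I and type II receptors to Smad proteins and is held back by secreted antagonists. Among its ligands, Bmp2 had 4.97, 4.68 and 4.56 in yMSCs P30, against 5.33, 5.67 and 5.71 in yMSCs P2 and Bmp6 had 4.79, 4.67 and 4.62 in yMSCs P30, against 5.43, 5.34 and 5.21 in yMSCs P2, both undetected in P30, at least 1.23-fold and at least 1.05-fold lower. Both ligands were close to the background in yMSCs P2 too, and Bmp6 lost its call without replicate 1 of yMSCs P2 (-0.58). Of the receptors, Bmpr1a had 7.60, 7.18 and 6.93 in yMSCs P30, against 7.67, 7.54 and 7.78 in yMSCs P2, a change of -0.43 ± 0.16 below the fold required, and Bmpr2 had 9.10, 8.40 and 8.28 in yMSCs P30, against 8.01, 7.68 and 8.00 in yMSCs P2 (change 0.70 ± 0.23, adjusted p = 0.0224), which lost its call without replicate 1 of yMSCs P30 (0.45, adjusted p = 0.121) or replicate 2 of yMSCs P2 (0.59, adjusted p = 0.0924). Bmpr1b was detected in neither group. The antagonists Grem1 and Fst had the largest fitted falls of the pathway. Grem1 had 11.07, 10.44 and 10.17 in yMSCs P30, against 13.08, 13.62 and 13.18 in yMSCs P2 (change -2.73 ± 0.35, adjusted p = 1.22e-05) and Fst had 5.55, 5.97 and 5.46 in yMSCs P30, against 7.47, 8.04 and 8.42 in yMSCs P2 (change -2.32 ± 0.30, adjusted p = 1.07e-05). The target genes Id2 and Id1 moved apart, with changes of -1.64 ± 0.30 and 1.24 ± 0.38. The arrays of both groups overlapped for Id1, which lost its call without replicate 3 of yMSCs P30 (1.04, adjusted p = 0.0603) or replicate 1 of yMSCs P2 (0.89, adjusted p = 0.0838). In all, 7 of 19 detected genes of the pathway fell and 2 rose, with a median of -0.43, or -0.16 with 3 undetected genes at their bound. With a larger offset of 50 in the background correction, which lessens the changes of dim genes, 3 fell and 2 rose.

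Of 12 TGF-beta pathway genes, 3 rose, Smad7 (0.70 ± 0.21), Tgfb2 (0.69 ± 0.21) and Tgif1 (0.63 ± 0.18), and 1 fell. That is 25.0% and 8.33%, against 17.2% and 17.3% of all genes. None of the list rose without normalization between arrays or with the series matrix values. Without replicate 2 of yMSCs P30, 5 of the list rose. Without replicate 1 of yMSCs P30, 1 rose, with Smad7 at 0.52 and Tgfb2 at 0.41. Tgif1 lost its call without replicate 3 of yMSCs P30 (0.50), Tgif1 and Tgfb2 without replicate 1 of yMSCs P2 (0.57 and 0.62) and Smad7 without replicate 3 of yMSCs P2 (0.49). The gene that fell was Acvrl1, a type I receptor, detected on all arrays of P2 and none of P30 and at least 11.4-fold lower. Of 12 Wnt genes, the receptor Fzd1 (-1.80 ± 0.16) and the antagonist Sfrp4 (at least 5.09-fold lower) fell, and Ccnd1 and the antagonist Wif1 (0.59 ± 0.14) rose. That is 16.7% in each direction, near the shares of all genes. Without normalization between arrays 4 of the Wnt genes fell and none rose. Of 6 Notch genes, the target Hes1 (0.95 ± 0.18), the target Hey1 (0.61 ± 0.17) and the modifier Lfng (at least 1.78-fold higher) rose, and Hey2 was at least 2.08-fold lower. Without replicate 1 of yMSCs P30, 4 Wnt genes fell. Wif1 lost its call without replicate 1 of yMSCs P30 (0.51), replicate 2 (0.48) or replicate 3 (0.56) of yMSCs P2, and Hey1 without replicate 2 of yMSCs P30 (0.49) or replicate 1 of yMSCs P2 (0.55).

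Of the insulin-like growth factor axis, the growth factor Igf2 had 4.45, 4.67 and 4.58 in yMSCs P30, against 9.83, 9.76 and 9.58 in yMSCs P2, undetected on every P30 array and at least 22-fold lower. The binding proteins Igfbp3 and Igfbp7 changed by -1.88 ± 0.20 and -1.56 ± 0.22, and the protease Pappa, which cleaves binding proteins, by -1.09 ± 0.19. The receptors Igf1r and Igf2r were higher, with changes of 0.94 ± 0.32 and 0.89 ± 0.20. No gene of the axis rose without normalization between arrays or with the series matrix values. The arrays overlapped for Igf1r, which lost its call without replicate 1 of yMSCs P30 (0.48, adjusted p = 0.139), replicate 1 (0.78, adjusted p = 0.096) or replicate 2 (0.89, adjusted p = 0.0689) of yMSCs P2. Among 7 detected imprinted genes, 4 fell and 1 rose. Besides Igf2, Ndn (necdin), a growth suppressor, fell, with 4.94, 6.04 and 5.54 in yMSCs P30, against 10.76, 10.68 and 10.70 in yMSCs P2 (change -5.21 ± 0.29, adjusted p = 6.23e-10). Replicate 1 of yMSCs P30 did not detect Ndn, so its fitted change takes background for signal there.

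Chemokines, complement and markers of macrophages fell together. All 16 detected markers of macrophages and monocytes were lower in yMSCs P30, with a median of -2.68, or -1.82 with the 15 undetected on the P30 arrays at their bound. The array carries 25 of them, and in yMSCs P30 the limit was reached by 1, Cd14, against 16 in yMSCs P2. The other 15 entered through yMSCs P2 alone, so the direction of their calls was nearly fixed by the filter on detection. Of all 1104 genes detected in yMSCs P2 only, 553 were called lower. The summed signal of the macrophage markers was 691 to 760 units in yMSCs P30, against 4165, 10915 and 3865 in yMSCs P2, so replicate 2 of yMSCs P2 held more than the other two P2 arrays together. Without that array all 16 were still lower, with a median of -2.33. Apoe, an apolipoprotein abundant in macrophages that stromal cells also make, had 4.76, 5.07 and 4.64 in yMSCs P30, against 10.48, 12.09 and 9.80 in yMSCs P2, at least 46.0-fold lower. The lysosomal protease Ctss and the calcium-binding protein Aif1, both typical of macrophages, were at least 15.9-fold and at least 15.4-fold lower. Ptprc, the pan-leukocyte antigen CD45, was below the limit in both groups, with 4.39, 4.37 and 4.40 in yMSCs P30, against 4.54, 5.34 and 4.67 in yMSCs P2. In such bulk RNA, fewer cells of a type and less RNA in each cell cannot be told apart.

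Of 17 chemokines, interleukins and receptors, 7 were detected in yMSCs P30 and all in yMSCs P2. Of the 17, 13 fell and none rose, with a median of -1.38, or -1.20 with 10 undetected genes at their bound. Cxcl12, the stromal chemokine that retains blood-forming cells in the marrow, had 9.22, 9.26 and 9.30 in yMSCs P30, against 11.17, 12.61 and 11.79 in yMSCs P2 (change -2.59 ± 0.28, adjusted p = 1.52e-06). Its receptor Cxcr4 was at least 2.37-fold lower. Chemerin (Rarres2), a chemoattractant and adipokine, had 4.44, 4.48 and 4.70 in yMSCs P30, against 10.34, 9.51 and 9.17 in yMSCs P2, at least 21.3-fold lower, and platelet factor 4 (Pf4) was at least 12.6-fold lower. Of 11 complement genes, 2 detected in yMSCs P30 and all in yMSCs P2, 9 fell and none rose, with a median of -2.10, or -1.25 with 9 undetected genes at their bound. The component C2 of the classical pathway had 5.06, 4.99 and 4.83 in yMSCs P30, against 9.74, 10.46 and 10.00 in yMSCs P2, at least 27.9-fold lower, and the C1q chains C1qb and C1qc were at least 4.07-fold and 3.16-fold lower. Of these lists, 1 chemokine gene and 3 complement genes were also among the macrophage markers, and of the others 12 of 16 and 6 of 8 fell. In both lists, the filter on detection nearly fixed the direction of calls for members detected in yMSCs P2 alone. The part of macrophages in these falls was not tested.

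Genes of the lysosome were lower as well, 18 of 26 with a median of -0.90, and none rose. Besides Ctsk and Ctss, Smpdl3a, a phosphodiesterase, had 6.61, 7.28 and 7.46 in yMSCs P30, against 11.07, 11.59 and 10.84 in yMSCs P2 (change -4.05 ± 0.23, adjusted p = 7.08e-10) and Ctsh, cathepsin H, had 5.91, 6.42 and 6.22 in yMSCs P30, against 8.77, 8.79 and 9.27 in yMSCs P2 (change -2.76 ± 0.18, adjusted p = 3.95e-09). Without the 2 macrophage markers of this list 16 of 24 fell. Of 14 genes of the interferon response and of antigen presentation, 8 fell and none rose, and 5 fell without replicate 2 or without replicate 3 of yMSCs P30. Psmb8, a subunit of the immunoproteasome, had 5.15, 5.90 and 5.74 in yMSCs P30, against 7.86, 8.63 and 9.01 in yMSCs P2 (change -2.91 ± 0.35, adjusted p = 6.38e-06), and B2m, the light chain of class I molecules, had 12.56, 13.11 and 13.06 in yMSCs P30, against 14.02, 13.85 and 14.08 in yMSCs P2 (change -1.07 ± 0.14, adjusted p = 1.59e-05). Replicate 1 of yMSCs P30 did not detect Psmb8, so its fitted change takes background for signal there. The membrane proteins Ifitm1 and Ifitm3 changed by -1.79 ± 0.28 and -1.08 ± 0.18.

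Genes of antioxidant defence were lower in part. Of 34 antioxidant and glutathione genes, 15 fell and 2 rose, with a median of -0.48. Gpx3, the secreted glutathione peroxidase, had 5.47, 5.82 and 6.04 in yMSCs P30, against 11.51, 11.97 and 11.38 in yMSCs P2, the largest fall among genes detected on all 6 arrays (57.6-fold, change -5.85 ± 0.27, adjusted p = 5.35e-11). Its P30 signals were close to the dimmest detected signals of these arrays, 5.23, 5.20 and 5.35. Sod3, the extracellular superoxide dismutase, had 5.57, 6.73 and 6.55 in yMSCs P30, against 11.34, 11.06 and 11.11 in yMSCs P2 (change -4.88 ± 0.25, adjusted p = 2.24e-10), and Sod2, its mitochondrial relative, had 6.69, 6.74 and 6.66 in yMSCs P30, against 8.26, 8.37 and 8.53 in yMSCs P2 (change -1.69 ± 0.23, adjusted p = 1.89e-05). Mgst1, a microsomal glutathione transferase, changed by -2.37 ± 0.29. Gss, glutathione synthetase, and the peroxiredoxin Prdx2 were the members that rose, with 1.11 ± 0.17 and 0.59 ± 0.18. Prdx2 lost its call without replicate 2 (0.48) or replicate 3 (0.50) of yMSCs P30 or replicate 1 of yMSCs P2 (0.50). Of 37 genes of oxidative phosphorylation, 2 fell, the complex I subunits Ndufa1 (-0.95 ± 0.32) and Ndufa2 (-0.93 ± 0.29), with a median of -0.23. This median rests on replicate 1 of yMSCs P30, in which the list lay 0.67 below its mean of yMSCs P2 at the median gene, against 0.01 and 0.05 in replicates 2 and 3. Without that array, no member fell and 1 rose, with a median of -0.02, and Ndufa1 and Ndufa2 were at -0.68, adjusted p = 0.118 and -0.67, adjusted p = 0.0858. Ndufa1 also lost its call without any single array of yMSCs P2 (-0.96, -0.93 and -0.96). The antioxidant genes lay 0.76 below P2 in replicate 1 and 0.41 and 0.36 below in replicates 2 and 3, and without replicate 1, 12 fell and 2 rose.

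**Figure D4:**
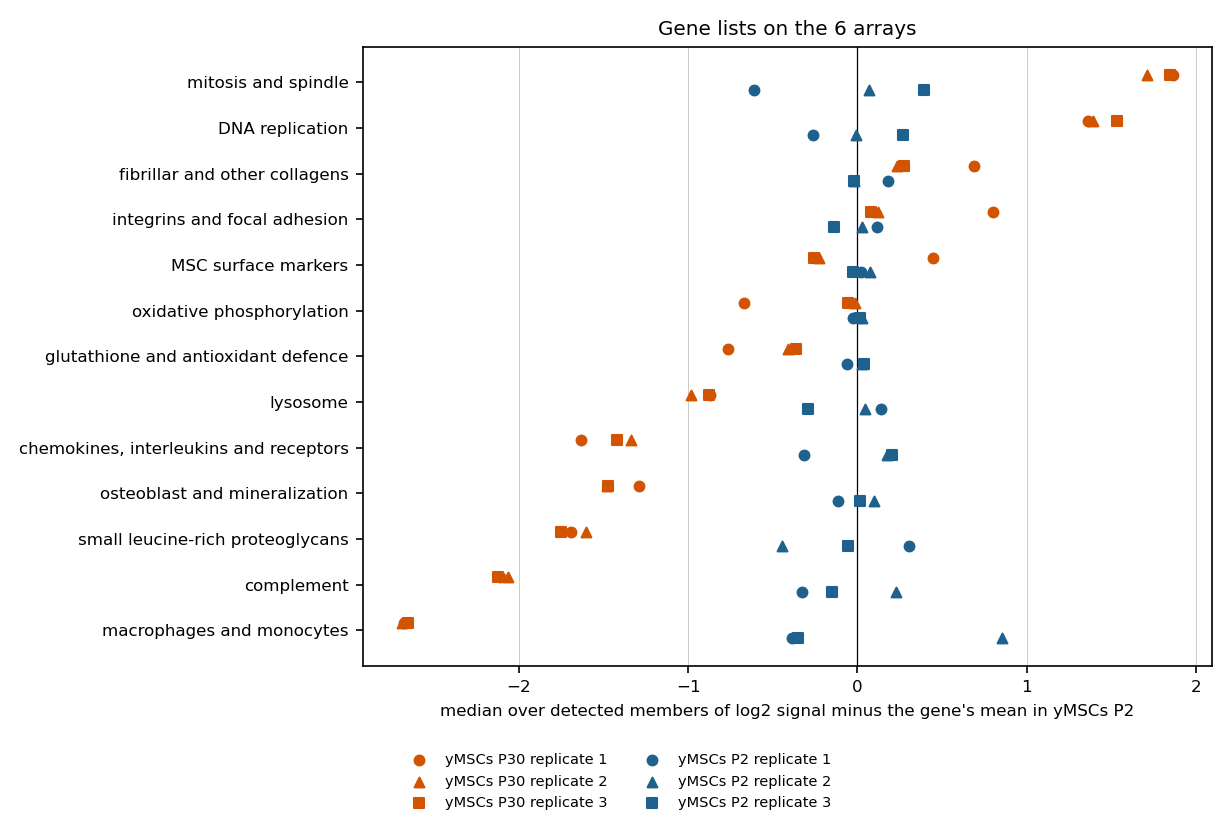
Shift of 13 gene lists on each array of yMSCs P30 and yMSCs P2 (1 symbol an array, P30 above P2 in each row), as the median over detected members of the log2 signal minus the mean of the gene in yMSCs P2. The arrays of P30 lie together for mitosis, DNA replication, lysosome, complement and macrophages, and replicate 1 of P30 lies apart for collagens, integrins, MSC surface markers and oxidative phosphorylation, where its shift is -0.67 against -0.01 and -0.05.

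The largest rises among genes detected on all 6 arrays included genes known from other tissues. Tnnc1, the troponin C of slow muscle and heart, had 11.98, 12.75 and 12.16 in yMSCs P30, against 6.54, 8.30 and 7.21 in yMSCs P2 (change 4.94 ± 0.38, adjusted p = 3.29e-08). Dmrt3, a transcription factor known from spinal cord neurons, had 9.95, 9.83 and 9.60 in yMSCs P30, against 5.18, 5.14 and 5.27 in yMSCs P2 (change 4.60 ± 0.34, adjusted p = 1.97e-08). Pdia5, a disulfide isomerase of the endoplasmic reticulum, had 9.83, 9.94 and 10.13 in yMSCs P30, against 5.58, 5.30 and 5.6 in yMSCs P2 (change 4.48 ± 0.15, adjusted p = 1.25e-12). Dmrt3 and Pdia5 were close to the background in yMSCs P2, and in all 3 genes every array of P30 was far above those of P2. Hmgn1, a nucleosome-binding protein, had 12.33, 12.45 and 12.38 in yMSCs P30, against 8.96, 8.75 and 8.44 in yMSCs P2 (change 3.67 ± 0.17, adjusted p = 5.35e-11), and Car9, a carbonic anhydrase induced in hypoxia, had 10.77, 10.50 and 10.60 in yMSCs P30, against 6.30, 5.76 and 8.46 in yMSCs P2 (change 3.78 ± 0.45, adjusted p = 4.42e-06). Replicate 3 of yMSCs P2 was more than 2 log2 units above the other P2 arrays for Car9. Krt7, a keratin of simple epithelia, and Pkp2, a protein of desmosomes, changed by 3.30 ± 0.29 and 3.24 ± 0.34. The lysophosphatidic acid receptor Lpar3, the Schlafen gene Slfn4 and Epb41l3, which links membrane proteins to the actin cytoskeleton, changed by 3.38 ± 0.23, 3.67 ± 0.26 and 3.11 ± 0.23. The intermediate filament Nes, nestin, of progenitor cells, had 8.14, 7.73 and 8.02 in yMSCs P30, against 4.57, 5.14 and 5.45 in yMSCs P2 (change 2.91 ± 0.21, adjusted p = 1.69e-08), while Vim, vimentin, the filament of mesenchymal cells, changed by -0.39 ± 0.14. Replicate 1 of yMSCs P2 did not detect Nes, so its fitted change takes background for signal there. Nes is thus not among the genes detected on all 6 arrays.

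In all, 51 named genes were called higher and detected on every array of yMSCs P30 and no array of P2, and 302 named genes were called lower with the opposite pattern. The largest bounds among the rises were those of Stmn2, a neuronal stathmin that regulates microtubules, with 8.98, 9.24 and 9.18 in yMSCs P30, against 4.47, 4.70 and 4.72 in yMSCs P2, at least 17.4-fold higher, and of Tmem178a, a transmembrane protein of the endoplasmic reticulum, with 8.82, 9.23 and 9.24 in yMSCs P30, against 4.69, 4.77 and 4.94 in yMSCs P2, at least 17.0-fold higher. Crmp1, a neuronal protein of axon guidance, was at least 11.3-fold higher, the transcription factors Tfap2a and Dlx1 at least 7.50-fold and 6.67-fold, and Rnf113a2, Vash2 and Kif15, the last a mitotic kinesin, at least 7.42-fold, 4.45-fold and 4.10-fold. Of the same list of neuronal genes, Dpysl3 and Ncam1 did not pass, with changes of -0.50 ± 0.26 and -0.12 ± 0.37. Among the falls, Cdo1, an enzyme of cysteine breakdown, was at least 30.3-fold lower. The water channel Aqp1 (7.29, 7.57 and 7.45 in yMSCs P30, against 12.88, 12.75 and 12.26 in yMSCs P2, change -5.19 ± 0.18), the palmitoyltransferase Zdhhc2 (-4.22 ± 0.21) and the nucleoside transporter Slc29a1 (-3.84 ± 0.25) were among the 10 largest falls of genes detected on all 6 arrays.

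Of 23 integrin and focal adhesion genes, 6 rose and 3 fell, 26.1% and 13.0%, against 17.2% and 17.3% of all genes. Their median of 0.28 turned to -0.05 with the series matrix values, where 4 rose and 4 fell. Itga7, the laminin-binding integrin chain of muscle, had 8.74, 8.11 and 7.77 in yMSCs P30, against 6.29, 5.81 and 5.84 in yMSCs P2 (change 2.23 ± 0.24, adjusted p = 1.52e-06). Itgbl1, an integrin-like secreted protein, had 5.71, 5.43 and 5.32 in yMSCs P30, against 9.82, 8.68 and 8.43 in yMSCs P2 (change -3.49 ± 0.28, adjusted p = 4.70e-08), and the growth factors Vegfa and Vegfc changed by -0.90 ± 0.26 and -0.82 ± 0.21. Replicate 3 of yMSCs P30 did not detect Itgbl1, so its fitted change takes background for signal there. The actin-binding proteins Flna, Flnc and talin (Tln1) rose with all arrays in the fit (0.75 ± 0.18, 1.95 ± 0.65 and 1.33 ± 0.32). Replicate 1 of yMSCs P30 was the highest array of the list, at 62777 units of summed signal against 34241 and 35043 on the other two and 33044 to 35559 in yMSCs P2, and without it 3 genes rose and 3 fell, as many rising as without replicate 3 of yMSCs P2. Flna and Flnc lost their call without that array (0.55, adjusted p = 0.0155 and 1.49, adjusted p = 0.102), and Flnc also without replicate 2 (1.92, adjusted p = 0.0603) or replicate 3 (1.88, adjusted p = 0.0598) of yMSCs P2. Of 8 smooth muscle genes, 4 fell and 1 rose, or 2 rose without replicate 1 of yMSCs P30 or replicate 3 of yMSCs P2. Actg2, enteric smooth muscle actin, had 10.13, 10.82 and 10.95 in yMSCs P30, against 12.96, 14.05 and 14.14 in yMSCs P2 (change -3.08 ± 0.29, adjusted p = 4.26e-07), the light chain Myl9 and calponin (Cnn1) changed by -1.41 ± 0.27 and -1.15 ± 0.23, desmin (Des) was at least 1.48-fold lower, and tropomyosin 1 (Tpm1) changed by 0.94 ± 0.19.

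Of the detected mRNAs for surface proteins that define MSCs, that of the 5' nucleotidase Nt5e (CD73) fell and the others did not pass. Protein on the surface is not measured by these arrays. Of 7 markers listed, 6 had a named probe, and Eng (CD105) had none. Nt5e had 5.89, 5.68 and 5.54 in yMSCs P30, against 9.29, 8.97 and 8.01 in yMSCs P2 (change -3.05 ± 0.29, adjusted p = 3.96e-07). Thy1 (CD90) had 11.38, 11.28 and 11.59 in yMSCs P30, against 12.54, 12.72 and 12.01 in yMSCs P2 (change -1.01 ± 0.45, adjusted p = 0.0806). Every P30 array was below every P2 array for Thy1, and its adjusted p did not pass in the fit of all 18 arrays. Of the detected surface markers, 1 fell in this fit, and 2 fell with only the 6 arrays of yMSCs P30 and P2 or with array weights. Also 2 fell with the series matrix values, with each array centred on its median and without normalization between arrays. Itgb1 (CD29) had 13.93, 12.86 and 12.98 in yMSCs P30, against 13.03, 13.16 and 13.06 in yMSCs P2, Cd44 had 9.74, 9.09 and 9.04 in yMSCs P30, against 9.32, 9.23 and 9.35 in yMSCs P2 and Alcam (CD166) had 9.55, 9.33 and 9.17 in yMSCs P30, against 9.02, 9.05 and 9.05 in yMSCs P2, with changes of 0.17 ± 0.33, -0.01 ± 0.21 and 0.31 ± 0.17. For Itgb1 and Cd44, replicates 2 and 3 of P30 lay below every array of P2 and replicate 1 above. Vcam1 (CD106) was below the limit in both groups, and Cd34, a marker of blood-forming cells, was detected on no array. The collagen genes Col1a1, Col1a2 and Col3a1 were bright in both groups. Markers of endothelial cells (3 of 10 on the array detected), erythroid cells (2 of 8) and lymphocytes (1 of 8) were few, and of these 6 genes only the erythroid Ahsp passed, at least 1.5-fold lower.

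The same comparison was made in aMSCs, cells from rats of 12 months, on 6 other arrays, so both changes share no sample. In aMSCs, 20.4% of 8878 detected genes rose and 21.2% fell. Of the 1538 rises in yMSCs, 908 were also called higher in aMSCs, 59.0% of the yMSCs' and 50.2% of the aMSCs' rises. Of the 1548 falls 903 were shared, 58.3% of the yMSCs' and 47.9% of the aMSCs' falls, and 71 genes were called in opposite directions. Across the 8938 genes both changes correlated at Pearson's r = 0.664 and Spearman's rho = 0.674, given as a description, since genes are not independent and the arrays of P30 and of P2 differ in background in both ages. The mitosis genes rose by 1.69 in yMSCs at the median, against 1.89 in aMSCs, and those of DNA replication by 1.43, against 1.26 in aMSCs.

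The difference between both changes was tested itself, as the interaction of passage with donor age. It passed in 1077 of the 8938 genes, 12.0%, more positive in yMSCs in 548 (6.13%) and more negative in 529 (5.92%). In 447 of the 1077 at least 1 of the 4 groups lay below the detection limit, so that the fitted difference takes background for signal and gives no size. Penk, which encodes the opioid precursor proenkephalin, had 10.04, 10.36 and 10.42 in yMSCs P30, against 11.36, 12.84 and 13.49 in yMSCs P2, a change of -2.29 ± 0.41 in yMSCs, against 2.81 ± 0.41 in aMSCs, a difference of -5.10 ± 0.58 (adjusted p = 1.91e-05). The amino acid transporter Slc7a3 was at least 5.06-fold lower at P30 in yMSCs, and its fitted change was -2.94 ± 0.13 in yMSCs, against 1.42 ± 0.13 in aMSCs. The lactate transporter Slc16a3 changed by -2.0 ± 0.19 in yMSCs, against 1.59 ± 0.19 in aMSCs. These genes were called in opposite directions. Gng11, a G protein gamma subunit, and Gpx3 fell by more in yMSCs, with changes of -4.64 ± 0.26 and -5.85 ± 0.27, against -0.70 ± 0.26 and -2.01 ± 0.27 in aMSCs. Cdhr1, a cadherin of photoreceptors, changed by 0.31 ± 0.46 in yMSCs, where its arrays overlapped, against 4.44 ± 0.46 in aMSCs. In the positive direction by the fitted values, Tmeff2, a transmembrane protein with follistatin-like domains, had 7.30, 7.61 and 7.60 in yMSCs P30, against 5.59, 4.80 and 5.31 in yMSCs P2, a change of 2.27 ± 0.22 in yMSCs, against a fitted -3.81 ± 0.22 in aMSCs, where it was below the limit at P30 (adjusted p = 2.19e-09). Replicate 2 of yMSCs P2 did not detect Tmeff2, so its change in yMSCs takes background for signal there. Epb41l3, Car9 and Pkp2 rose in yMSCs, and their changes in aMSCs were -2.34 ± 0.23, -1.41 ± 0.45 and -1.14 ± 0.34, the first of these with Epb41l3 below the limit at P30. Tmem178a, at least 17.0-fold higher in yMSCs, had a fitted change of -0.33 ± 0.14 in aMSCs, and Wfdc1, a secreted protease inhibitor, changed by 0.13 ± 0.26 in yMSCs, against -4.24 ± 0.26 in aMSCs. Among genes of bone, Dlx5 and Alpl fell in yMSCs, and their changes in aMSCs were 0.31 ± 0.23 and 0.18 ± 0.28 (differences of -3.54 ± 0.32 and -1.73 ± 0.40, adjusted p = 1.64e-06 and adjusted p = 0.00884). Col3a1 rose in yMSCs and changed by -0.42 ± 0.28 in aMSCs. The surface proteins Itgb1, Cd44 and Alcam, which did not pass in yMSCs, changed by -1.41 ± 0.33, -1.35 ± 0.21 and -0.71 ± 0.17 in aMSCs, and each of these differences passed. The summed signal of the surface marker list was 4983, 6114 and 13043 units in aMSCs P30, against 20147, 23803 and 25594 in aMSCs P2. Replicate 3 of aMSCs P30 thus lay apart, and no aMSCs array was left out in turn. For Itgb1 and Cd44, replicate 1 of yMSCs P30 also lay above the other arrays of its group.

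**Figure D5:**
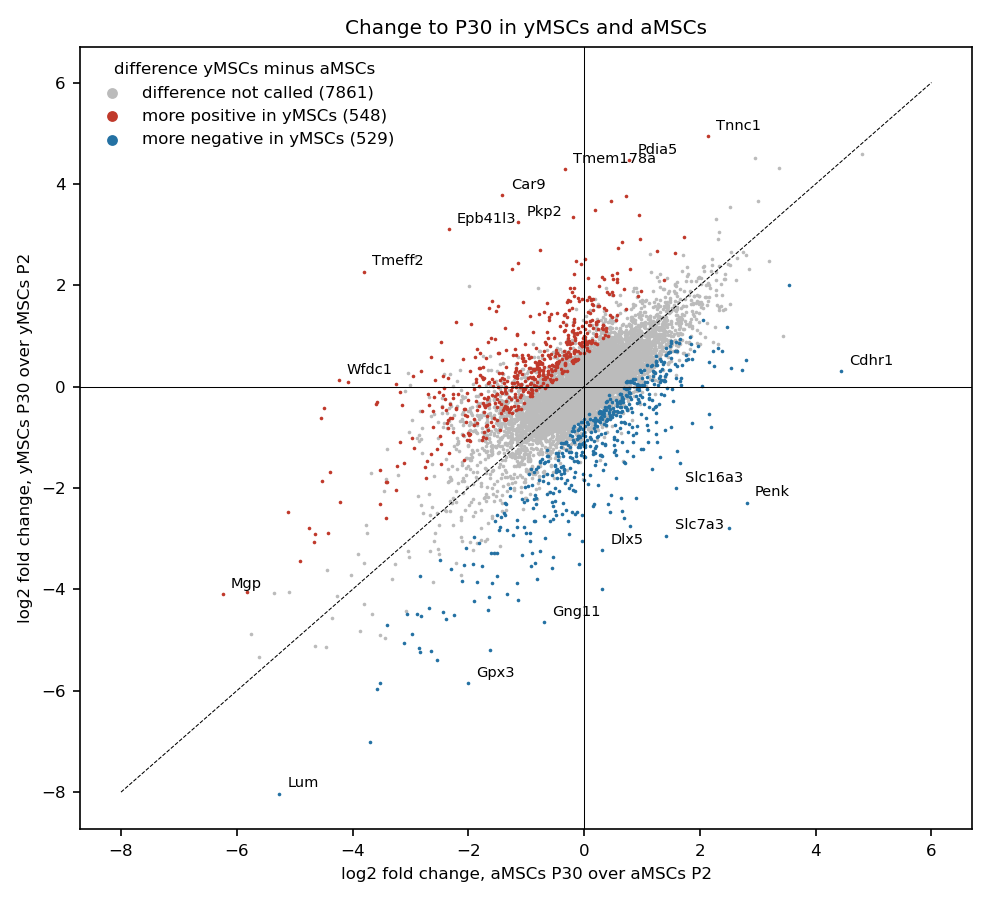
Log2 fold change of P30 over P2 in yMSCs (vertical axis) against that in aMSCs (horizontal axis) for the 8938 genes, with the line of equal change dashed and genes coloured where the difference passed the test. The difference passed for 548 genes more positive and 529 more negative in yMSCs, with Tmeff2 and Penk farthest from the line among named genes by the fitted values.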

How the data were processed

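Total RNA of 18 samples was hybridised to Illumina RatRef-12 BeadChips and read with BeadStudio 3, per the labels. The deposited table holds scanner intensity per probe, which the authors had not normalized, and a detection p-value per probe against negative control beads. The deposited series matrix holds linear intensity from which the authors subtracted the background and which they scaled by rank-invariant probes, and it served as an alternative, on the log2 scale with values below 16 set to 16. Of 22226 probes, 13192 had a gene symbol and 9034 had none. Intensities were background-corrected with an offset of 16 and quantile-normalized (neqc), then fitted as 6 group means over 18 arrays with limma 3.58.1 in R 4.3.3 (12 residual and 4.51 prior degrees of freedom), with Benjamini-Hochberg adjustment over 9531 genes. Calls required an adjusted p below 0.05, a change of at least 1.5-fold and a mean detection p of 0.01 or less in yMSCs P30 or P2, and 40 genes that passed but were detected in neither were not counted. For a gene detected on no array of one group, the fold is given as at least the ratio of the brighter mean to the dimmest detected signal of each dim array or the gene's own signal, whichever was higher. A gene detected on only part of the arrays of a group is given by its fitted change, which takes background for signal on the rest. Where a gene had more than 1 probe (46 genes), its brightest probe over all arrays was taken. The difference between yMSCs and aMSCs was an interaction contrast of the same fit. The scripts were tested on simulated data.

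Named were the 10 largest rises and falls among called genes detected on all 6 arrays without overlap, the 8 largest bounds in each direction, the 6 largest differences from aMSCs in each direction, the members of lists of up to 20 genes, and of longer lists the 4 called members with the smallest adjusted p in each direction, with genes the study writes of or stained as surface markers. Outside this rule, Mcm6, Mcm10 and Cdc20 were named as holders of promoter letters and Cd14 as the 1 macrophage marker detected in P30, after their values were seen. The members and lists were chosen with earlier results of these data known. Alternatives were another offset, no background correction, other or no scaling, the series matrix, other filters and thresholds, only the 6 arrays, array weights, a replicate block and each array left out in turn. The number of arrays limits the precision. P100 arrays entered the fit only for its spread. Promoters came from RefSeq (GRCr8) and were matched by symbol. Figures were drawn in Python 3.11.15 with pandas 2.3.3, scipy 1.17.1 and matplotlib 3.10.9.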

Additional observations from a re-analysis of the deposited data

Results flagged for a closer look

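The change from P2 to P30 differed between yMSCs and aMSCs by the interaction term in 1077 genes, at an adjusted p under 0.05 from limma and a difference of at least 1.5-fold. The 75 of these that are named above are given with the log2 change in yMSCs minus that in aMSCs, so that a negative value means a change that was more negative in yMSCs. Of the 75, 39 were above the detection limit in all 4 groups, and their values come first. The matrix proteins among them differed by Bgn 0.94, Mgp 2.16, Tnn -0.94, Fbn1 2.65, Col3a1 1.62, Col6a1 -2.20 and Col14a1 -2.21. For the lysosomal proteases, the difference was Ctsk -1.70 and Ctsh -1.30. The genes of bone and fat differed by Dlx5 -3.54, Alpl -1.73, Spp1 -0.76, Enpp1 1.30, Pth1r 1.5 and Klf15 -1.68. For genes of growth factor and Wnt signaling, the difference was Fst -2.73, Fzd1 0.92 and Igfbp7 -1.06. The immune genes differed by Psmb8 -2.65 and Ifitm1 -1.62, and the antioxidant enzymes by Gpx3 -3.84 and Sod3 -1.90. For E2f1 of the cell cycle, the difference was -0.72. The surface proteins of MSCs differed by Itgb1 1.59, Cd44 1.34 and Alcam 1.02. For contractile proteins, the difference was Cnn1 -1.52 and Tnnc1 2.80. The transporters differed by Slc16a3 -3.60, Slc29a1 -1.73 and Aqp1 -3.57. For the remaining genes, it was Penk -5.10, Gng11 -3.95, Car9 5.20, Pkp2 4.38, Wfdc1 4.37, Pdia5 3.70, Hmgn1 3.21 and Lpar3 2.43.

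In the other 36, at least 1 of the 4 groups lay below the detection limit, so the fitted difference takes background for signal and gives neither a size nor a bound. A direction named above for such a gene is only the sign of its fitted value. These fitted values were Lum -2.76, Aspn -3.31, Dcn -2.84, Tgfbi 1.36, Fbn2 2.51 and Col15a1 -2.75 for matrix proteins. They were Smpdl3a 1.77, Mmp23 -1.42, Timp3 -1.19 and Pappa -0.91 for enzymes and an inhibitor, and Lpl 1.62 and Cfd -2.72 for genes of fat. For signaling they were Bmp2 -0.81, Bmp6 0.72, Sfrp4 -1.13, Wif1 0.89, Hey2 -0.79, Igf2 -2.30 and Igfbp3 1.52, and for the imprinted Ndn -2.56. Immune genes and macrophage markers had Apoe -2.39, Pf4 -2.25, Cxcr4 -1.28, C1qb -1.95 and C1qc -1.86. The remaining fitted values were Cdo1 -2.40, Rfc2 1.07, Slc7a3 -4.36, Cdhr1 -4.13, Tmeff2 6.07, Epb41l3 5.45, Tmem178a 4.63, Tfap2a 3.54, Rnf113a2 3.30, Crmp1 3.03 and Dlx1 1.95. The arrays of P30 and P2 differed in background in both ages, and the part of this in the differences was not tested.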

How the results depend on the processing

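No call of a named gene turned its direction under any alternative, and 138 of 174 named genes lost no call. Without normalization between arrays 1025 genes rose, and the median of all genes moved to -0.13, or -0.15 with the series matrix values, against 0.04 (log2). With a fold of at least 2 required, 656 rose, 761 fell and 712 differed from aMSCs. With array weights 2983 differed from aMSCs, and the cause was not tested. Leaving out each of the 6 yMSCs arrays in turn, and no array of aMSCs, gave 1353 to 1600 rises, 1384 to 1561 falls, 854 to 1070 differences from aMSCs, and -944 to -672 genes detected per array. The members of oxidative phosphorylation that fell were 9 without normalization and 12 with the series matrix values, against 2. Of the interferon list 5 fell, against 8, with an offset of 50 or without replicate 2 or 3 of yMSCs P30.

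The replicate block gave 1539 rises, 1528 falls and 933 differences from aMSCs. Arrays with the same number deviated together at r = 0.17, -0.087 and 0.20, so the numbers were not taken to pair the arrays, and the block changed no call of a named gene. Dim genes are limited by the background, which was higher on the P30 arrays.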

Other observations

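Among all detected genes 17.2% rose and 17.3% fell, to be set beside the counts here. Of 15 detected genes of cholesterol synthesis 1 rose and none fell, with a median change of 0.04, and of 30 cytosolic ribosome genes 1 rose and 5 fell, with a median of -0.12. Of 15 glycolysis genes 1 rose and 4 fell (median -0.13), of 6 keratins and intermediate filaments 2 rose and 2 fell, of 8 neuronal stathmins, CRMPs and related genes 3 rose and 1 fell, of 4 cartilage genes 2 rose and 1 fell, and of 5 pericyte markers 2 rose and 1 fell. Leaving out 1 array moved some of these counts: 1 cartilage gene rose without replicate 1 of yMSCs P30, 1 keratin or filament gene fell without replicate 1 or 3 of yMSCs P30 or replicate 3 of yMSCs P2, and without replicate 1 of yMSCs P2, 2 genes of cholesterol synthesis rose and 2 neuronal genes fell. The median of cholesterol synthesis lay between -0.27 and 0.23 when 1 array was left out, and was -0.11 without normalization between arrays and -0.18 with the series matrix values. The summed signal of this list was 13303 to 14012 units in yMSCs P30, against 24055, 11879 and 9585 in yMSCs P2, so replicate 1 of yMSCs P2 lay apart.

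Replicate 1 of yMSCs P30 lay over 1 log2 unit above the mean of replicates 2 and 3 in 329 genes and below it in 224. The named genes farthest above were Ltbp2 (1.70), a protein of elastic fibres, Lamb2 (1.64), a laminin chain, Plxnb2 (1.63), a semaphorin receptor, Dop1b (1.61), Gtf3c1 (1.6), a subunit of a transcription factor of RNA polymerase III, and Pygb (1.58), a glycogen phosphorylase. Farthest below were Gpatch4 (-1.70), the carbonic anhydrase Car3 (-1.49), the histone gene H2ac25 (-1.47), Lsm11 (-1.45), which takes part in histone mRNA processing, Zfp428 (-1.42) and Twist2 (-1.38), a mesenchymal transcription factor. These genes were chosen after their values were seen.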
